A study of Mus musculus with 4 samples.

Results

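Phase II conjugation enzymes, here the glutathione S-transferases, the glucuronosyltransferases and the sulfotransferases, were followed in mouse middle ears after inhalation of diesel exhaust particles (DEPs). Members were chosen by name alone: every probe whose RefSeq accession maps to a gene symbol of a glutathione S-transferase (Gst of the alpha, kappa, mu, omega, pi, theta or zeta class, or Mgst), of a glucuronosyltransferase (Ugt1 to Ugt3) or of a sulfotransferase (Sult). This gave 56 genes with 77 probes, among 32360 genes with a probe on the array, where each accession or other target identifier without a symbol counts as a gene, here and in all shares of genes below. They comprise 24 of 25 annotated glutathione S-transferases, 12 of 18 glucuronosyltransferases and 20 of 21 sulfotransferases. The annotated genes for which no probe was found are Gsta1, Sult2a5, Ugt1a1, Ugt1a2, Ugt1a5, Ugt1a8, Ugt1a9 and Ugt2a2.

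RNA came from the dissected ears of male BALB/c mice aged 6 to 10 weeks. The exposed group (DEP_ear) inhaled DEPs suspended in saline with Tween 80 for 1 h a day on 5 days, and all mice were killed on day 14. The control group (CON_ear) is labelled as having no treatment, and no source used here says whether it inhaled the vehicle. The tissue taken was the temporal bone area with the middle ear, from 9 mice in all, and the number of mice behind an extract is not given.

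Each of 4 two-colour arrays carried 1 exposed extract in the red dye Cy5 and 1 control extract in the green dye Cy3, and the unit of every comparison is the log2 ratio of Cy5 to Cy3 on 1 array. In the labels the Cy5 channel bears the treatment of either group and Cy3 bears no entry, so the source names of the channels were followed. The signs given here run opposite to the direction the study itself states for genes it names, and an exchange of the extracts would turn every sign below. No array had its dyes swapped, so that a dye preference of a probe and the exposure cannot be told apart. The arrays are labelled as biological replicates, without a statement of which animals they came from.

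Conjugation is the second step in the handling of foreign compounds. Enzymes of the first step, such as cytochromes P450, expose a reactive or polar group on a hydrophobic compound, and a transferase then joins glutathione, glucuronic acid or sulfate to it, so that the product dissolves in water and can be pumped out of the cell. DEPs carry polycyclic aromatic hydrocarbons and quinones, whose epoxides, phenols and hydroquinones are textbook substrates of these 3 families. Many of the genes are known to answer to the aryl hydrocarbon receptor or to Nrf2 (Nfe2l2), the factor that binds antioxidant response elements. Several members also have a resident task in 1 tissue, such as cholesterol sulfation by Sult2b1 in keratinised epithelium.

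Several properties of the arrays bear on all values below. Between 60.5% and 70.0% of spots were well above background in a channel, and no spot was saturated. Ratios of the 4 arrays correlated across genes between -0.22 (arrays 1 and 4) and 0.61 (arrays 1 and 2), where genes are not independent replicates. All 13 markers of airway-type epithelium, among them Foxj1 of ciliated cells and Bpifa1 of secretory cells, stood well above background on each array in both dyes, as were neuronal, epidermal and muscle markers. Markers of nerve tissue and of keratinised epithelium differed between the extracts on single arrays by large factors and not in 1 direction, and arrays 1 and 4 often opposed each other. In extracts of a mixed tissue, fewer cells of a type and less RNA per cell cannot be told apart.

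The 3 families differed in how much of each could be measured. A probe is called measured here when the authors' software marked its signals in Cy5 and in Cy3, both, as well above background on each of the 4 arrays. This held for 22 of 24 glutathione S-transferases, 0 of 12 glucuronosyltransferases and 5 of 20 sulfotransferases, against 56.7% of all genes with a probe. The other two glutathione S-transferases were Gstp3, whose control channel was above background on 3 arrays, and Gstt4, above background only in the DEP channel of array 1.

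Of the glucuronosyltransferases, 7 were above background in neither channel on any array (Ugt2a1, Ugt2a3, Ugt2b1, Ugt2b34, Ugt2b35, Ugt2b36 and Ugt3a1), and the other 5 (Ugt1a10, Ugt2b37, Ugt2b38, Ugt2b5 and Ugt3a2) were so in some. Most of these enzymes are best known from liver. Of 10 hepatocyte markers with a probe, 5 were measured, among them Apoa2, Ttr and Trf, and 3 were never above background (Alb, Apoa1 and Cyp2c29). Among the sulfotransferases, 12 were never above background, including 6 of the Sult2a genes, known as hepatic bile acid and steroid sulfotransferases. The 5 measured ones were Sult1a1, Sult2a8, Sult2b1, Sult4a1 and Sult5a1. A probe below background gives only an upper limit to its signal and does not show that the transcript is absent.

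**Figure D1:**
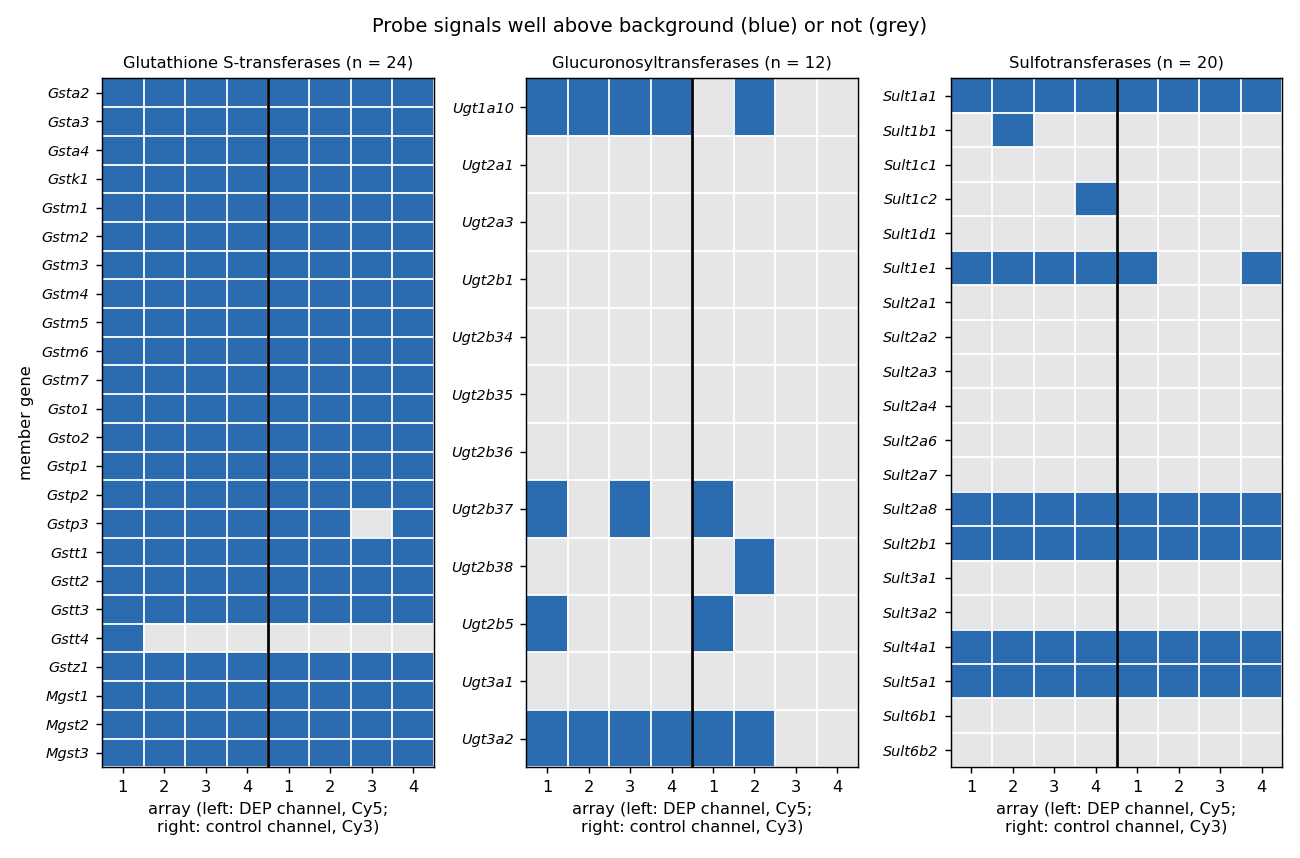
Detection of the 56 members, 1 row per gene and 1 column per array and channel, with the DEP channel (Cy5) left of the thick line and the control channel (Cy3) right of it; blue marks a probe signal well above background. The glutathione S-transferases are blue in nearly all columns, whereas no glucuronosyltransferase is blue in all 8.

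No member passed the test of its ratio against 0. A ratio on at least 3 arrays was there for 41 members (24 glutathione S-transferases, 7 glucuronosyltransferases and 10 sulfotransferases), and 15 could not be tested. Limma's moderated test, adjusted by Benjamini-Hochberg over all probes, called 0 of the 41 at an adjusted p under 0.05, and 0.0% of all 25694 genes tested, whose smallest adjusted p was 0.0922. At an unadjusted p under 0.05 limma called 4800 genes, and an ordinary least-squares test called 0 genes after adjustment as well. The smallest adjusted p of a member was 0.115 (Ugt2a3), and for a single gene an exact sign-flip test over 4 arrays cannot give a p below 0.125.

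Means were positive for 28 members and negative for 13, and the 41 had a median log2 ratio of 0.16, against 0.03 over all genes tested. An unadjusted p under 0.05 was reached by 4 members with higher signal in the DEP channel (Sult1b1, Ugt1a10, Ugt3a1 and Ugt3a2), where 10% of all genes did so, and by 1 with lower signal (Ugt2a3), where 8.66% did. None of these 5 belonged to the measured members, and Ugt2a3 and Ugt3a1 were above background in neither. A mean past 2-fold was seen for 5 members higher (background 2.37%) and for 2 lower (background 4.37%), of which only Sult2b1 (higher) and Sult4a1 (lower) were measured in the sense above. The 5 became 2 without array 1, and 1 with loess, with median centring and with the filter for both channels. Every array with a ratio was positive for 7 members (background 17.4%) and negative for 2 (background 12.6%). The call counts depended on single arrays, since 3 members were higher and 1 lower at an unadjusted p under 0.05 without array 1, and 8 were higher and 2 lower without array 4.

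For the 27 measured members the ratios lay close to 0 on average and far apart between arrays. Their median was 0.08 on the log2 scale, against 0.03 over the 18347 genes measured in the same way, and 21 of the 27 means were within 0.3 of 0. The SD between arrays was larger than the size of the mean in 26 of 27. Neither count was made over all genes. The median SD of the 27 was 0.43, against 0.28 over all measured genes. By the brightest probe of each gene, none had an unadjusted p under 0.05, where 6.55% of measured genes were higher and 6.07% lower. Under median centring, where the median of measured genes was 0.27, that of the 27 was 0.46, with 25 above 0, 11 higher at an unadjusted p under 0.05 and 5 past the adjusted threshold, while of 18347 measured genes 79.9% were above 0, 7447 were higher at that p and 3169 passed after adjustment. By the brightest probe, only Mgst2 and Gstp1 of the measured members were above 0 on 4 of 4 arrays (background 15.4%). None was below 0 on 4 of 4 (background 10.7%). A second measured Gstp1 probe was below 0 on 3 arrays, and a second measured Gstm4 probe was above 0 on all 4. Array 1 opposed array 4 in most of the other measured members. Of these, 14 were higher on array 1 and lower on array 4 (background 27.4%), and 9 the other way round (background 32.1%). Array 1 held the ratio farthest from 0 for 18 of the 27, a count not made over all genes. Array 1 was also the widest over all measured genes, with an SD of 0.90 against 0.55, 0.50 and 0.46 on arrays 2 to 4.

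**Figure D2:**
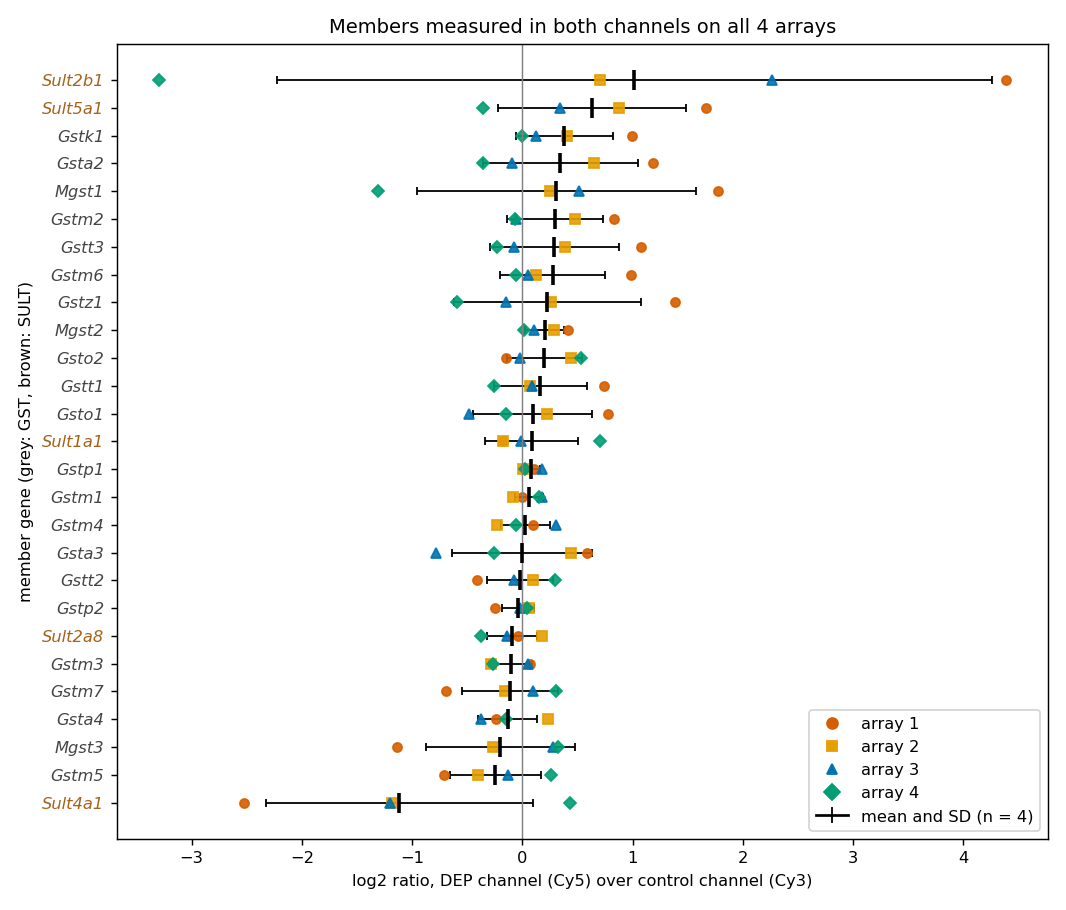
Log2 ratio of the DEP channel to the control channel for the 27 measured members (x axis), with 1 marker per array, and the mean (bar) with its SD over 4 arrays. Sult2b1 runs from -3.30 to 4.39 and Sult4a1 from -2.52 to 0.43, while Gstm1, Gstp1 and Gstp2 stay close to 0 on every array.

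Glutathione S-transferases join the thiol of glutathione to electrophiles such as epoxides and quinones. As a family they were measured best, and 16 of the 24 means were positive and 8 negative, with a median log2 ratio of 0.13 and 0 past the adjusted threshold (smallest adjusted p 0.345, of Gstt4). Under median centring after normexp, which raised the median of all measured genes to 0.27, 23 were positive and 1 negative, with a median of 0.49 and 5 past the threshold (Gstm1, Gstm2, Gstp1, Gstp2 and Mgst2). By array, the medians of the 22 measured members were 0.26, 0.17, 0.01 and -0.06 on arrays 1 to 4.

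The mu class holds 7 genes, next to each other among the members on mouse chromosome 3, whose sequences are alike enough that probes may share transcripts. Gstm1, with one of the 3 highest mean signals of the family, had log2 ratios of -0.00, -0.08, 0.18 and 0.15 on arrays 1 to 4. The mean was 0.06 ± 0.12 (SD, n = 4), with a 95% interval from -0.22 to 0.34. Its arrays thus lay on both sides of 0 and within a narrow band, and its second measured probe had a mean of -0.01.

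Gstm2 had ratios of 0.83, 0.48, -0.06 and -0.07, higher on arrays 1 and 2 and level on the other two, with a mean of 0.30 ± 0.44 (SD, n = 4). Gstm5 ran the other way, at -0.71, -0.40, -0.13 and 0.26, so that array 1 was lowest and array 4 highest. Its mean was -0.25 ± 0.41 (SD, n = 4), the lowest of the family, with an adjusted p of 0.508 in limma. Gstm7, the neighbour of Gstm5 on the chromosome, had ratios of -0.70, -0.16, 0.10 and 0.30. A second Gstm7 probe gave -0.65, 0.01, -0.00 and -0.04, so that the probes agree on a low array 1 and not on array 4. The other three (Gstm3, Gstm4 and Gstm6) had means from -0.11 to 0.28.

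In the pi class, Gstp1 and Gstp2 varied little between arrays. Gstp1, a main cytosolic transferase outside the liver, had ratios of 0.11, 0.00, 0.18 and 0.03, with a mean of 0.08 ± 0.08 (SD, n = 4) and a 95% interval from -0.18 to 0.34. Of the 18347 measured genes, 95.2% varied more between arrays than Gstp1 by its brightest probe. A second measured Gstp1 probe gave -0.04, -0.15, 0.21 and -0.06. Gstp2 had ratios of -0.25, 0.06, -0.03 and 0.04, and its mean of -0.04 became 0.03 without array 1. Gstp3 behaved unlike these close relatives, with ratios of 3.47, 0.87, 2.34 and -0.90. The DEP channel was thus higher on arrays 1 to 3 and lower on array 4, where the processed signal was 66.6 in the DEP channel and 125 in the control channel. On array 1 the same probe read 949 against 85.8, while on array 3 the control channel was not above background and no fold is given. The mean of Gstp3 was 1.44 ± 1.89 (SD, n = 4), with an adjusted p of 0.354, and it varied with single arrays. It was 0.77 without array 1, 1.15 without array 3 and 2.23 without array 4, with adjusted p values of 0.578, 0.636 and 0.187 in limma, and 0.84 with normexp and loess.

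Alpha class genes encode transferases that also reduce lipid peroxides. Gsta2 had ratios of 1.18, 0.65, -0.09 and -0.36, and Gsta3 had 0.59, 0.44, -0.78 and -0.26. Both were therefore higher on arrays 1 and 2 and lower on arrays 3 and 4, with means of 0.34 and -0.00. Gsta4, which prefers the lipid aldehyde hydroxynonenal, had ratios of -0.24, 0.24, -0.38 and -0.15. Its probe was printed 10 times on each array, and the SD of these spots within an array was 0.020 to 0.039, against an SD of 0.26 between arrays. These spots show the technical spread of 1 probe, and the second Gstm7 probe, also printed 10 times, had an SD of 0.11 to 0.19 within an array and of 0.32 between arrays.

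The microsomal class sits in membranes. Mgst1, which protects membranes of the endoplasmic reticulum and mitochondria against lipid peroxides, had ratios of 1.77, 0.25, 0.51 and -1.31. In signals this was 32511 against 9513 on array 1 and 6067 against 15051 on array 4, the first in favour of the DEP channel and the second of the control channel. A second Mgst1 probe gave 1.97, 0.49, 0.70 and -1.16, the same order of arrays. The mean of 0.31 ± 1.27 (SD, n = 4) turned to -0.18 without array 1 and was 0.84 without array 4. Mgst3 ran from -1.14 on array 1 over -0.27 to 0.28 and 0.32 on the others, and a second probe differed from it by at most 0.0949 on any array. Mgst2, known with Mgst3 for making leukotriene C4, was higher on each array (0.41, 0.28, 0.10 and 0.02), with a mean of 0.20 ± 0.18 (SD, n = 4) and an adjusted p of 0.404.

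Gstz1, the maleylacetoacetate isomerase of tyrosine breakdown, had ratios of 1.38, 0.26, -0.15 and -0.60. Gstk1, a mitochondrial and peroxisomal transferase, had 0.99, 0.40, 0.13 and -0.00. Theta class Gstt3 had 1.07, 0.38, -0.08 and -0.23. In all of these array 1 was highest and array 4 lowest, and their means of 0.22 to 0.38 were smaller than their SDs. The remaining measured members (Gstt1, Gstt2, Gsto1 and Gsto2) had means from -0.03 to 0.20. Gstt4 was too dim to give a fold.

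Promoters are shown because they carry the letters that the 2 regulators named above are known to bind and because their genes had unlike ratios on the arrays. RefSeq windows of the 250 bases before a start site (build GRCm38.p6) were found for 49 of the 56 members. The core of the antioxidant response element, TGACNNNGC on either strand, occurred in the window of 4 members (Gsta3, Gstm5, Gstm7 and Mgst1), and in 10.2% of the 32851 windows of all genes. The core of the xenobiotic response element, TNGCGTG on either strand, occurred in 2 (Gsta2 and Sult1d1), against 4.1% of all windows. The windows of 4 measured members are printed 5′ to 3′ along the gene, with the matching letters in capitals (in Mgst1 on the opposite strand). They hold TGACATTGC in Gsta3, TGACCACGC in Gstm5, GCACGGTCA in Mgst1 and TAGCGTG in Gsta2.
Gsta3, chr1:21240335-21240584, plus strand: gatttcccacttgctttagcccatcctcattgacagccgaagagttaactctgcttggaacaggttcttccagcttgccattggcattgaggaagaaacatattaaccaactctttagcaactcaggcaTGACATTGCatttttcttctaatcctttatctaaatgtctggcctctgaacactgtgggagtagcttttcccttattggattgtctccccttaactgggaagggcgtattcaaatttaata
Gstm5, chr3:107895604-107895853, plus strand: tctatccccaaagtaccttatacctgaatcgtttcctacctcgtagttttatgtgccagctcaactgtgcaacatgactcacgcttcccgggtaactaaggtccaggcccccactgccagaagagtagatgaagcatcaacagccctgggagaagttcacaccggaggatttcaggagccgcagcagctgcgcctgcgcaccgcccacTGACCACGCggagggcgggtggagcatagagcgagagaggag
Mgst1, chr6:138140277-138140526, plus strand: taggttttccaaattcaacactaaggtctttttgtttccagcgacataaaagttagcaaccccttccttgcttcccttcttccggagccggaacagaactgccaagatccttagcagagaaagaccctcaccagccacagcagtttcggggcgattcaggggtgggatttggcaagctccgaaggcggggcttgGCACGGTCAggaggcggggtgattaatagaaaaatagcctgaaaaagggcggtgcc
Gsta2, chr9:78347146-78347395, minus strand: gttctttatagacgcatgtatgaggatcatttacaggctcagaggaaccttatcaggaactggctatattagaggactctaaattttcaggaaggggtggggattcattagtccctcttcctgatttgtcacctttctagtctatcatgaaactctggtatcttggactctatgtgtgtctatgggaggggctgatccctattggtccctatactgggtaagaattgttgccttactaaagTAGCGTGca
The 3 genes with an antioxidant response core shown here were picked for unlike ratios, so their unlikeness is not a result. On array 1, Mgst1 was at 1.77, Gsta3 at 0.59 and Gstm5 at -0.71, and on array 4 at -1.31, -0.26 and 0.26. Gstm7, which has the core and is not shown, ran like Gstm5, at -0.70, -0.16, 0.10 and 0.30 on arrays 1 to 4. A match of letters is a description of the window and says nothing of binding in these samples.

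Glucuronosyltransferases move glucuronic acid from UDP-glucuronic acid to phenols, steroids and bilirubin in the endoplasmic reticulum. Because 0 of 12 counted as measured, their ratios rest on signals close to background, and their median of 0.09 over 7 tested genes describes mostly dim probes. Ugt1a10 was above background in the DEP channel on all arrays and in the control channel on array 2 only. Its ratios were 1.92, 0.11, 2.47 and 0.41, all above 0, and on array 2, where both channels were above background, the signals were 98.2 and 90.8. The mean log2 ratio was 1.23 ± 1.14 (SD, n = 4) with an adjusted p of 0.258. As the control channel was above background on 1 array only, this mean does not measure a fold. Its unadjusted p of 0.043 in limma became 0.141 without array 1 and 0.122 without array 3, and the mean was 0.29 with normexp background correction and loess. The Ugt1a genes share their last exons, so the probe may not tell Ugt1a10 from its neighbours.

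Ugt3a2, of a family whose human members use other sugars than glucuronic acid, was above background in the DEP channel throughout and in the control channel on arrays 1 and 2. Its ratios of 0.77, 0.25, 0.56 and 0.10 were all above 0, with a mean of 0.42 ± 0.30 (SD, n = 4), an adjusted p of 0.254 and a mean of 0.14 with normexp and loess. The unadjusted p of 0.041 in limma rose to 0.105, 0.0742 and 0.135 without arrays 1, 2 and 3. A second Ugt3a2 probe, above background in neither channel, had a mean of the opposite sign, -0.60.

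Ugt2b38, of the steroid-conjugating subfamily, was above background only in the control channel of array 2. Its ratios were -0.53, -0.84, 0.96 and -0.66, with neither channel above background on arrays 1, 3 and 4. The other sign of array 3 is therefore not a measured difference. The 95% interval of the mean ran from -1.13 to 0.60, and no fold is given. Ugt2b37 had ratios from -0.36 to -0.09, all below 0, with a mean of -0.19. For Ugt2a3 and Ugt3a1 the means were -1.22 and 1.33 over 3 arrays. Neither channel was above background on any array, so these means do not measure a fold.

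Sulfotransferases move sulfate from PAPS to phenols, steroids and amines. Of 10 tested, 8 means were positive and 2 negative, with a median of 0.42. Over the 5 measured members the median was 0.08, with 3 means above 0 and 2 below, and normexp with loess brought that of all 10 to 0.05. The family held Sult2b1, the member whose ratios were farthest apart between arrays.

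Sult2b1, the cholesterol sulfotransferase of keratinised epithelium, had ratios of 4.39, 0.71, 2.26 and -3.30. The signals were 19899 in the DEP channel against 951 in the control channel on array 1, 3538 against 2169 on array 2, 2193 against 457 on array 3, and 427 against 4192 on array 4. So the DEP channel was the higher on arrays 1 to 3 and the lower on array 4, with large factors on both sides. The mean was 1.02 ± 3.25 (SD, n = 4), its 95% interval ran from -2.24 to 4.27 and the adjusted p was 0.679. Without array 1 the mean was -0.11, and without array 4 it was 2.45, with an adjusted p of 0.218 in limma. Of the 18347 measured genes, 34 (0.185%) had a larger SD between arrays.

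Sult4a1, a brain sulfotransferase without a settled substrate, had ratios of -2.52, -1.18, -1.20 and 0.43. Its signal was lower in the DEP channel on arrays 1 to 3 (2226, 3986 and 4494 against 12798, 9046 and 10305) and higher on array 4 (4845 against 3588). The mean of -1.12 ± 1.21 (SD, n = 4) is a ratio of 0.461 with an adjusted p of 0.298, and it was -0.65 without array 1 and -1.63 without array 4, with adjusted p values of 0.450 and 0.174 in limma. Median centring gave -0.59. A second probe gave -3.08, -1.64, -1.36 and 0.15. Its mean was -1.48, with an unadjusted p of 0.036 and an adjusted p of 0.244 in limma. Both Sult4a1 probes therefore ordered the arrays alike at the ends, although they differed by up to 0.56 on an array.

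Sult5a1 had ratios of 1.66, 0.88, 0.34 and -0.36, with a mean of 0.63 ± 0.85 (SD, n = 4) and an adjusted p of 0.379. Without array 1 its mean was 0.29, and without array 4 it was 0.96. Sult1e1, the estrogen sulfotransferase, had ratios of 0.06, 1.68, 2.10 and -0.12. The DEP channel was above background throughout, at 42.4 to 62.3, while the control channel was so on arrays 1 and 4 only, and on these arrays the ratio was near 0. The mean of Sult1e1 was 0.93, from 0.54 to 1.28 without single arrays and 0.23 with normexp and loess. Its size comes from arrays 2 and 3, where the control channel was not above background, so it does not measure a fold. Sult1a1, the main phenol sulfotransferase, had ratios of -0.18, -0.18, -0.02 and 0.70, so that array 4 stood above the other three. Its mean of 0.08 turned to -0.12 without array 4, and a second probe agreed within 0.16 on each array. Sult2a8 was near 0 on all arrays, from -0.37 to 0.17. Sult1b1 and Sult1c2, each above background on 1 array and in the DEP channel alone, allow no fold.

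**Figure D3:**
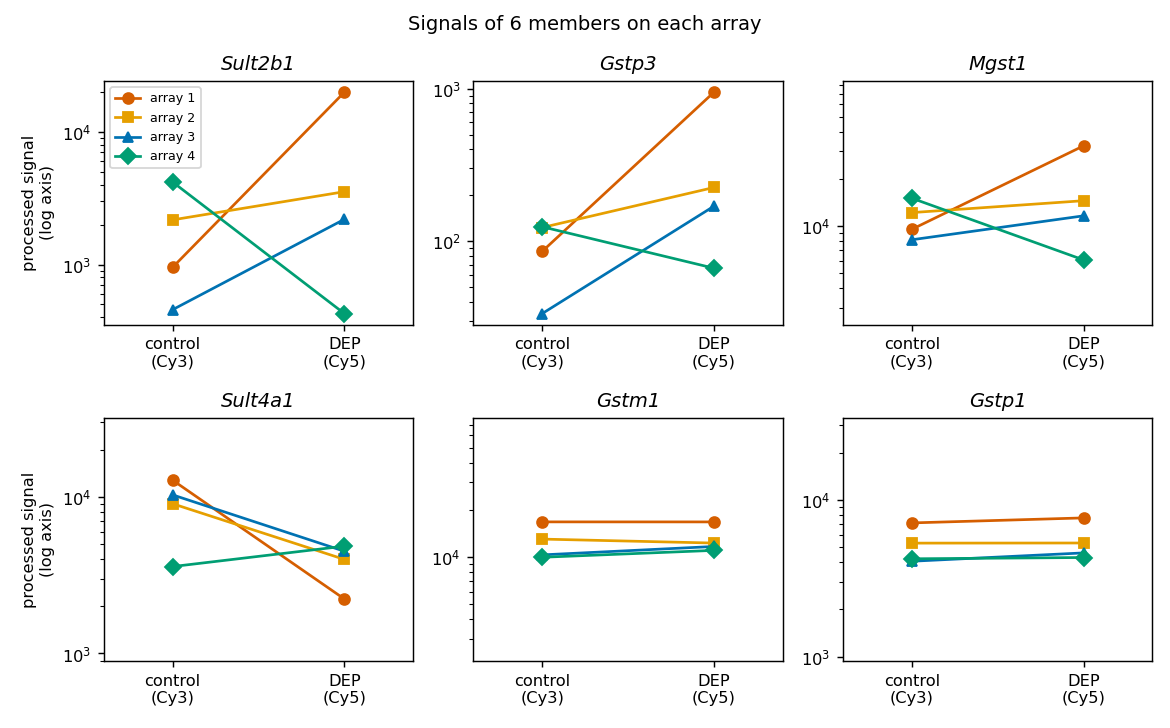
Processed signals (y axes, log scale, different range in each panel) of 6 members in the control channel (Cy3) and the DEP channel (Cy5), with 1 line per array. Lines of Sult2b1, Gstp3 and Mgst1 climb on arrays 1 to 3 and fall on array 4, those of Sult4a1 do the opposite, and those of Gstm1 and Gstp1 are nearly level.

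Marker genes of other tissues also varied between arrays, and are set here beside the members that varied most. Epidermal markers, 8 of 9 with a probe and all 8 measured, had medians of 3.00, 0.33, 0.08 and -0.59 on arrays 1 to 4, with 8, 8, 7 and 0 of 8 above 0. Their summed signal in the DEP channel ranged from 38378 to 352750 and in the control channel from 53236 to 65977. Krt14, a keratin of basal keratinocytes, had ratios of 2.95, 0.57, 0.92 and -1.80. A list of mouth and esophagus epithelium, added after the values of Sult2b1 were seen, had medians of 2.73, 0.44, -0.14 and -1.01, and its Sprr3 was never above background. Sult2b1, Gstp3 and Mgst1 share with both lists a high array 1 and a low array 4, whereas on array 3 the medians of both lists were near 0 and Sult2b1 was at 2.26. The part of these tissues in the ratios of the members was not tested.

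Neuronal markers, all 14 measured, had medians of -2.27, -1.25, -0.83 and 0.27, with 0, 0, 0 and 10 of 14 above 0, and a summed signal of 26965 to 40290 in the DEP channel and 30788 to 109900 in the control channel. Cerebellar markers had medians of -2.69, -3.26, -0.28 and 0.20, and astrocyte markers -1.90, -0.45, -0.19 and 0.12. Sult4a1, at -2.52, -1.18, -1.20 and 0.43, lay on the same side of 0 as the neuronal median on every array. Mgst3 and Gstm5 were likewise lowest on array 1 and highest on array 4. Skeletal muscle markers had the same lowest and highest arrays, with medians of -0.85, -0.54, 0.73 and 0.76. Neutrophil markers (-0.90, -0.03, 0.61 and 0.29), erythroid markers (-0.77, 0.27, 0.46 and 0.20) and B cell markers (-0.59, 0.05, 0.47 and 0.36) were also lowest on array 1, but highest on array 3. Myelin markers had medians of -0.80, -0.16, -0.21 and 0.32. Mgst3 had the sign of the muscle and neutrophil medians on every array and differed in sign from the neuronal and myelin medians on array 3. Markers of airway-type epithelium, by contrast, had medians of -0.24, 0.29, -0.91 and -0.44, in another order of arrays. The contribution of these tissues to the members was not tested.

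**Figure D4:**
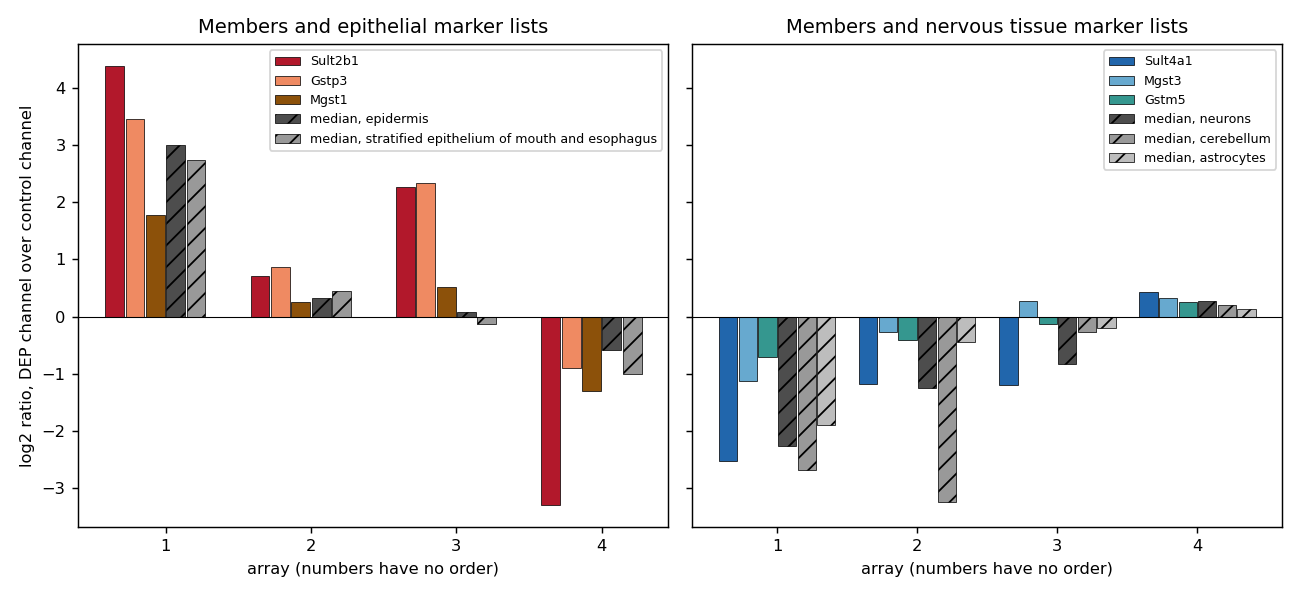
Log2 ratios on each array (y axis) of 3 members and the medians of 2 lists of epithelial markers (left), and of 3 members and the medians of 3 lists of nervous tissue markers (right, hatched bars for lists). Epithelial bars are tallest on array 1 and below 0 on array 4, and nervous tissue bars are lowest on array 1 or 2 and above 0 on array 4.

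Genes that feed, precede or control conjugation were read from 5 lists. Of the enzymes of phase I and of quinones that act on DEP compounds, all 16 tested had means above 0 under each of 3 scalings, where 54.2% (deposited ratios), 49.9% (loess) and 61.9% (median centring) of all genes did, and 79.9% of measured genes under median centring. An exchange of the extracts would put all 16 below 0. The count was not taken without single arrays, and some of the means rest on array 1. Cyp2b10 had ratios of 3.02, 0.39, 0.39 and -1.08, and Aldh3a1 had 1.46, 0.27, -0.22 and -0.29. Cyp1b1, Cyp2e1 and Nqo2 were above 0 on all 4 arrays, and 7 (Cyp1a1, Cyp2b10, Cyp2f2, Por, Aldh3a1, Cbr1 and Cbr3) were above 0 on array 1 and below 0 on array 4, as the epidermal markers were, whose part in this was not tested. Their median was 0.31, against 0.03 for all genes, and 2 were higher at an unadjusted p under 0.05 (background 10%). None passed after adjustment, except that median centring, which called 3386 genes in all, called 4 (Cyp1b1, Ephx1, Nqo2 and Por). Cyp1b1, a cytochrome P450 that oxidises polycyclic hydrocarbons, had ratios of 0.31, 0.58, 0.37 and 0.63, above 0 on every array, with an adjusted p of 0.167. The quinone reductase Nqo2 had 0.19, 0.32, 0.35 and 0.40, with an adjusted p of 0.228. The classic aryl hydrocarbon receptor target Cyp1a1 had 6.53, 1.14, 3.39 and -4.52, with a control channel not above background on array 3 and an adjusted p of 0.642. Like Sult2b1 it was high on array 1 and low on array 4. Nqo1, a classic Nrf2 target, stayed between -0.04 and 0.33.

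Among 20 tested regulators, 5 were higher (background 10%) and 1 lower (background 8.66%) at an unadjusted p under 0.05, with a median of 0.24. The 5 higher ones, all measured, were the Nrf2 partners Maff (mean 0.85) and Mafk (0.35), their repressor partner Bach1 (0.52), the nuclear receptor Rxra (0.60) and the estrogen receptor Esr1 (0.46). Each was above 0 on 4 of 4 arrays, with adjusted p values from 0.176 to 0.227. For Esr1 the paper reports the reverse, lower after exposure on its arrays and by qRT-PCR. Nfe2l2 itself had ratios of -0.04, 0.49, 0.32 and 0.31, with a mean of 0.27 and an adjusted p of 0.333. Ahr was at 1.48 on array 1 and between -0.08 and 0.40 on the other arrays. Nr1i3, the 1 lower, was above background on 1 array and in the control channel alone. After adjustment 0 of the 20 passed, and under median centring 7 did (Arnt, Nfe2l2, Maff, Mafg, Mafk, Bach1 and Ppara).

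The other transferases of phase II (19 tested) had 3 higher and 1 lower at an unadjusted p under 0.05 and a median of -0.00. For this list and those of supply and export the background is the same 10% higher and 8.66% lower, 0 genes passed after adjustment, and median centring called 4, 4 and 1. Named by the rule were the arylamine acetyltransferase Nat2 at 0.53, the methyltransferase Inmt at 0.40 and the prostaglandin D synthase Hpgds, itself a sigma class glutathione transferase, at 0.63, each above 0 on all arrays. Of the 21 genes tested for the supply of glutathione, UDP-glucuronic acid and PAPS, 0 were higher and 1 lower. The lower one, the sulfate transporter Slc13a1, was above background in no DEP channel. Gclc and Gclm, which make the rate-limiting enzyme of glutathione synthesis, had means of 0.01 and -0.04, and Ugdh, which makes UDP-glucuronic acid, had 0.20. Of 12 genes for export and deconjugation, 1 was higher (the arylsulfatase Arsb, mean 0.38) and 0 lower, with a median of 0.18. The conjugate pumps Abcc1 and Abcc4 had means of 0.43 and 0.52, with array 1 highest and array 4 lowest in both.

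**Figure D5:**
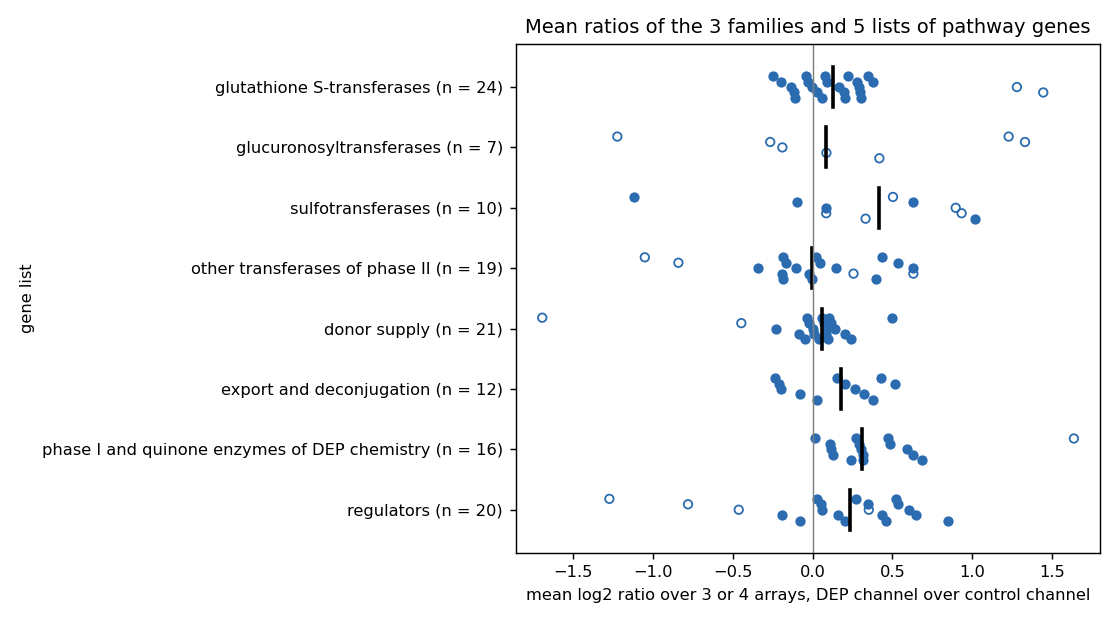
Mean log2 ratio of each tested gene (x axis, 1 dot per gene) in the 3 families of members and 5 lists of related genes; filled dots are measured genes, open dots are not, and the black bar is the list's median. Medians lie between -0.00 and 0.42, and most of the means farthest from 0 are open dots.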

How the data were processed

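Ratios of Cy5 (DEP_ear) to Cy3 (CON_ear) were taken from 4 two-colour arrays of 1 slide and 1 scan. The authors quantified the spots with Agilent Feature Extraction 10.10.1.1 and deposited background-subtracted, dye-normalized intensities, the flags for signals well above background, and the log10 ratio of each spot, used here on the log2 scale. A table of the same log10 ratios, deposited by the authors for the whole series, served as an alternative. The software's flags, deposited as 0 or 1 per spot and channel, decided which spots count as outliers or as above background.

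Control spots, outlier spots (164 to 274 of 43020 per array) and spots without a ratio (6179 to 8558) were left out, and spots of a probe were averaged. Probes were named through their accessions with RefSeq's table for GRCm38.p6 (27655 of 39429 probes), used for names and promoter windows only. With 4 arrays, their number sets the precision. Among several probes of a gene the brightest stood for it. The ratios of 31577 probes, present on 3 or 4 arrays, were tested against 0 by an intercept-only model in limma 3.58.1 (lmFit and eBayes, R 4.3.3), with two-sided p-values adjusted after Benjamini and Hochberg across those probes. On simulated ratios for DEP over control (31577 probes, 200 changed), 72 were called, 1 of them falsely, with 58 of 100 recovered at a log2 change of 2 and 13 of 100 at 1. Those ratios were independent normal draws on 4 complete arrays. In the real data spots lacked ratios and genes of a tissue varied together, so these rates are not its power. Tables were made with pandas 2.3.3 and numpy 2.4.6 under Python 3.11.15, and figures with matplotlib 3.10.9.

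Described array by array are members with a channel above background on every array and an unadjusted p under 0.05 or a mean past 1.5-fold, and the 3 of each family with the highest mean signal. Genes of the 5 related lists were named if past an unadjusted p of 0.05 and above background in at least 1 channel throughout. Other genes were chosen after their values were seen, as was the list of mouth and esophagus epithelium. The members and lists were chosen with earlier results of these data known. Alternatives were normexp (offset 50, on median spot signals) with loess or with median centring, the deposited ratio table, 2 filters on dim probes, keeping outlier spots, eBayes with an intensity trend, averaging the probes of a gene, least squares without moderation, and leaving out each array. The qRT-PCR was not analysed here.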

Additional observations from a re-analysis of the deposited data

How the results depend on the processing

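No member passed an adjusted p of 0.05 in limma under any alternative except median centring after normexp, which called 5 (Gstm1 at a log2 ratio of 0.68, Gstm2 at 0.76, Gstp1 at 0.52, Gstp2 at 0.60 and Mgst2 at 0.54). That centring also called 3386 of 25694 genes, moved the median of all genes to 0.13 and of measured genes to 0.27, put 23 of 24 glutathione S-transferases above 0 (16 of 24 with the deposited ratios and with loess) and raised their median to 0.49. Members higher at an unadjusted p under 0.05 numbered 2 with loess, 11 with median centring, 2 and 0 with the filters for 1 and both channels, 2 with an intensity trend, 1 without moderation, and 2 to 8 without single arrays. Members lower numbered 0 with loess, 2 with median centring, 0 with either filter, 2 with the mean of a gene's probes, and 1 to 2 without single arrays. Past 2-fold, 1, 1, 3 and 1 members were higher with loess, median centring and the filters for 1 and both channels, and 1, 0, 1 and 1 lower, with 2 to 6 higher and 1 to 2 lower without single arrays. The median of the glucuronosyltransferases was 0.82 with the filter for 1 channel, and the filter for both left none. That of the sulfotransferases was 0.053 with loess, 0.071 with median centring and 0.083 with the filter for both. The cause was not tested, apart from the filters, which leave fewer genes. Of the 41 tested members, 14 had means on both sides of 0 without single arrays, and the sign turned for 1 with loess (Sult1d1) and 13 with median centring. Among the 12 members chosen by the rule for description, signs turned for Gstp2 (0.60 with median centring; -0.078 to 0.026 without single arrays, positive without array 1), Mgst1 (-0.18, without array 1, to 0.845), Sult1a1 (-0.12, without array 4, to 0.170) and Sult2b1 (-0.11, without array 1, to 2.45). Without single arrays, the medians ranged from 0.05 to 0.24 (glutathione S-transferases), -0.06 to 0.10 (glucuronosyltransferases) and 0.19 to 0.52 (sulfotransferases). The deposited table and the kept outlier spots changed none of these counts of members. Signals near background limit the glucuronosyltransferases and most sulfotransferases. No paired analysis was possible because the labels pair nothing beyond the extracts that share an array, a pairing the ratio within an array already uses.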
